A study of Mus musculus with 3 samples.

Results

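The promoters of proteasome subunit genes and of chaperone genes were examined as viewpoints of a nuclear-titrated (NuTi) Capture-C experiment in mouse erythroid cells. A viewpoint is a DpnII restriction fragment at a promoter that was enriched with biotinylated probes, and each value counts the unique ligation events between that fragment and another fragment of the same chromosome (cis events). Viewpoints were taken by name: a part of the name, split at each _ sign, had to begin with Psma, Psmb, Psmc, Psmd, Psme, Hsp, Dnaj or Cct followed by a digit, and the 8 names that stood on more than 1 line of the list were left out. This gave 102 of the 7176 viewpoints that had a position and listed contacts, of which 41 carried a proteasome name and 62 a chaperone name. The viewpoint Dnajc2_Psmc2, a fragment shared by the starts of a J-domain gene and a proteasome ATPase gene, counted in both groups. The name Psmc3ip also met the rule, although this gene encodes a recombination factor and not a proteasome subunit. Whether each gene with a chaperone name acts as a chaperone was not checked. The genes Cct7, Dnajb1, Dnajb4 and Dnajc12 were each covered by a pair of viewpoints, which are not independent of each other.

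The cells came from spleens of F1 hybrids between C57BL/6 and CBA/J mice that had received phenylhydrazine, which destroys red cells and fills the spleen with CD71+ ter119+ erythroid cells. They were then selected for the surface marker ter119. The series held 3 libraries of this 1 group, with no untreated or other control group, so comparisons were made between distances, windows and viewpoints. Age and sex were not given in the sources used here, nor was the number of animals behind each library. Contact counts hold no expression, so the labelled cell type could not be checked against marker genes. The columns of the contact table carried no names, so the letters a, b and c stand for the libraries in column order.

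The proteasome is the main protease of the cytosol and nucleus and degrades proteins tagged with ubiquitin. Its 20S core is a barrel of outer alpha rings and inner beta rings, with the proteolytic sites on beta subunits, and its 19S cap holds ATPases that unfold the substrate and non-ATPase subunits that bind and remove ubiquitin. Chaperones help proteins to fold: HSP70 proteins bind unfolded stretches, J-domain (Dnaj) proteins bring them their clients, HSP90 acts on late folding steps, and the chaperonin CCT folds actin and tubulin in a closed chamber. Both systems are known for their part in the maturation of red cells, which make large amounts of globin and then clear most other proteins.

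Sequences are shown for 4 short viewpoints with called contacts, described below, so that the pieces of DNA from which these contacts were counted can be seen. All are from mm9 and the plus strand, in lower case, with the DpnII sites GATC in capitals. Psma2_Mrpl32 lies at chr13:14705286-14705414, Psma1 at chr7:121419585-121419657, Dnajc16 at chr4:141346448-141346739 and Zfp830_Cct6b at chr11:82577718-82577987.
Psma2_Mrpl32: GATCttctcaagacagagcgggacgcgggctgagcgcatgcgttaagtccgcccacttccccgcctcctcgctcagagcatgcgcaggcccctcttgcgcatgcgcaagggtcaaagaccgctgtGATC
Psma1: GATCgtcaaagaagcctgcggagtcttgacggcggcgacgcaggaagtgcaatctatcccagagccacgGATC
Dnajc16: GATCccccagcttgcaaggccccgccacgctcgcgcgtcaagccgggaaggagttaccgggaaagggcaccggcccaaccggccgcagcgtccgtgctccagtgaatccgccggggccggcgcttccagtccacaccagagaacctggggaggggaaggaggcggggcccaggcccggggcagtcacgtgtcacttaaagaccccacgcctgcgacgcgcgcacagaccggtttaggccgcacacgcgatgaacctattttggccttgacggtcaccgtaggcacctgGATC
Zfp830_Cct6b: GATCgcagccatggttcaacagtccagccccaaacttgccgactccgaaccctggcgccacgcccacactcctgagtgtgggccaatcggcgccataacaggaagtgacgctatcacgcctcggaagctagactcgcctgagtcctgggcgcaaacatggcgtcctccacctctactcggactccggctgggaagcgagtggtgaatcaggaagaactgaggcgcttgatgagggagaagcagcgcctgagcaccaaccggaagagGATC

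The Psma1 fragment, at 73 bp, was the shortest of the proteasome viewpoints, whose median was 674 bp and whose longest, Psmb9_Tap1, had 1739 bp. Chaperone viewpoints ran from 176 to 4204 bp with a median of 753 bp, beside a median of 746 bp over all viewpoints. The study reports that short viewpoints, such as those printed above, tended to have more contacts with other chromosomes. Such contacts are not counted here. The next sequence is a distant partner rather than a viewpoint: it is the fragment at chr13:14045647-14045934 that Psma2_Mrpl32 contacted 660 kb away, described below with its counts. It holds runs of c and of a. Whether parts of the fragment recur elsewhere in the genome, so that reads could be misplaced, was not checked. The capitals mark the parts of the cut DpnII sites at its ends.
Fragment contacted by Psma2_Mrpl32: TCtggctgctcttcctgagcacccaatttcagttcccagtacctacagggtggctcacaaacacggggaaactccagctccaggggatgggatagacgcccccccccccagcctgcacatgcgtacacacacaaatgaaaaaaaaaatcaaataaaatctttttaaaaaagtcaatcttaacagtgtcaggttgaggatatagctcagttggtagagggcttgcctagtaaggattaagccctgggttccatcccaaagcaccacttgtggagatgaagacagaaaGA

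Depth differed widely between viewpoints. The median proteasome viewpoint held 2142 ± 868 cis events per library (SD, n = 2, libraries b and c counted as 1 sample) and the median chaperone viewpoint 1563 ± 587, beside 1962 ± 827 over all viewpoints. In libraries a, b and c the medians were 1529, 2740 and 2772 for the proteasome and 1148, 1976 and 1980 for the chaperones, beside 1377, 2562 and 2532. In each library the proteasome median was the highest and the chaperone median the lowest. Of the proteasome viewpoints 24 of 41, and of the chaperone viewpoints 22 of 62, lay above the median of all viewpoints in events summed over the libraries. Libraries b and c were counted as 1 sample because, over the windows of these viewpoints with at least 10 events, they were the closest pair of libraries in each range of distance, though by little. Their chi-square per window was 0.763 up to 10 kb, 0.976 up to 100 kb and 1.08 farther out. For a and b it was 0.784, 1.03 and 1.13, and for a and c 1.08, 1.08 and 1.15. The study describes its libraries as independent, and where b and c differ their mean hides that spread. With the libraries counted as 3 samples the medians were 2347 ± 709 events for the proteasome (SD, n = 3), 1701 ± 479 for the chaperones and 2157 ± 676 over all viewpoints. Nothing in the labels says that the libraries came from separate animals, so the spread may be technical.

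The deepest proteasome viewpoint was Psma4_AY074887, at the start of the gene for the alpha subunit Psma4, with 31406, 57584 and 57341 events in libraries a, b and c. Psmc1, the promoter of a 19S ATPase gene, followed with 13361, 21911 and 21791 events, and Psmd10, which encodes the assembly chaperone gankyrin, with 11130, 19483 and 19681. In the chaperone group Dnaja4 led with 22379, 33610 and 32809 events, followed by Dnajc17_Zfyve19 with 4969, 8260 and 8170 and by Dnaja2 with 3811, 6707 and 6777. Psma4_AY074887 and Dnaja4 both lie in a stretch of chromosome 9, and Psmd10 lies on chromosome X, where viewpoints of the whole series were deep. Without these stretches the medians were 2125 events for the proteasome and 1554 for the chaperones.

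At the other end, 4 viewpoints fell under the minimum of 1000 summed events and were left out of all profiles: Psmd8 with 773, Dnajb1_a with 499, Dnajb9_Mir5627 with 463 and Atpif1_Dnajc8 with 75 events. In the whole series 6.38% of viewpoints fell under it. This left 40 proteasome and 59 chaperone viewpoints, 98 in all. The shallowest of those kept in the proteasome group were Psma7_Ss18l1, with 228, 449 and 456 events, and Psme4, the promoter of an activator gene, with 364, 587 and 643. In every one of the 98, library a was the shallowest.

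**Figure D1:**
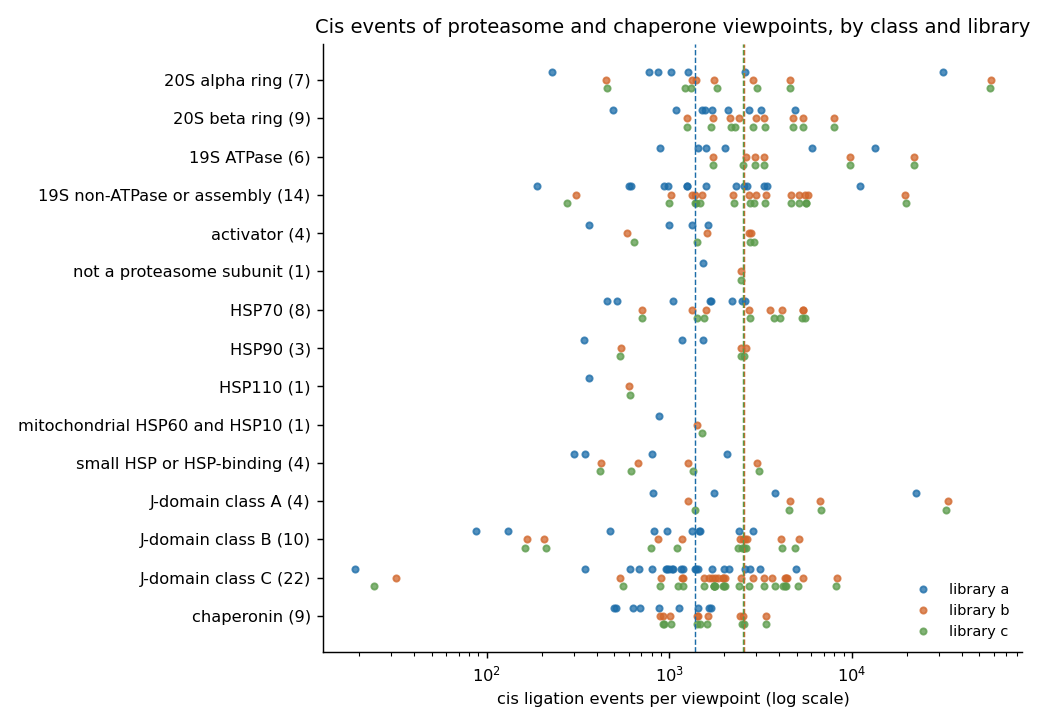
Cis events of each proteasome and chaperone viewpoint in libraries a, b and c, on a log axis, with dashed lines at the median of all viewpoints in each library. Values spread from 19 events for Atpif1_Dnajc8 in library a to 57584 for Psma4_AY074887 in library b. Rows are classes of genes with the number of viewpoints in each.

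Contacts fell with distance at a pace close to that over all viewpoints. On logarithmic axes, the slope of the mean count against distance from 10 kb to 1 Mb was -0.90 ± 0.03 (SD, n = 2) for proteasome viewpoints and -0.93 ± 0.02 for chaperone viewpoints, beside -0.92 ± 0.02 over all viewpoints. By library it was -0.92, -0.88 and -0.89, then -0.94, -0.91 and -0.91, and -0.93, -0.90 and -0.90. Within libraries a, b and c, the proteasome slope minus that over all viewpoints was 0.014, 0.020 and 0.014. For chaperones this difference was -0.011, -0.012 and -0.006, and neither was tested. Between 10 and 100 kb lay 17.2% ± 1.98 of the cis events of the median proteasome viewpoint and 17.5% ± 1.52 of the median chaperone viewpoint, beside 16.4% ± 1.32 over all viewpoints. Between 100 kb and 1 Mb the medians were 20.8% ± 0.55, 20.3% ± 0.719 and 19.8% ± 0.64. In libraries a, b and c they were 21.2%, 20.7% and 20.2%, then 20.8%, 19.9% and 19.7%, and 20.3%, 19.3% and 19.4%. The groups were counted in the same libraries, and within each library both lay above all viewpoints in both ranges. From 10 to 100 kb the difference in percentage points was 1.21, 0.148 and 0.411 in libraries a, b and c for the proteasome and 1.21, 1.03 and 0.823 for the chaperones. Farther out, to 1 Mb, it was 0.934, 1.37 and 0.756 for the proteasome and 0.504, 0.539 and 0.246 for the chaperones. These differences are small beside those between single promoters and were not tested. From 1 to 10 Mb, however, the chaperone median of 19.6% was below the 21.1% of all viewpoints, with 19.5%, 19.9% and 19.5% in libraries a, b and c against 20.6%, 21.7% and 21.7%. Library a gave the highest share from 10 to 100 kb in both groups, 18.6% in each, against 15.6% to 16.5% in libraries b and c.

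Single promoters differed far more than the groups. In the proteasome group the share from 10 to 100 kb was highest at Psme2 and Psme1, the neighbouring genes of the PA28 activator, with 31.6%, 25.0% and 25.5% in libraries a, b and c for Psme2 and 31.7%, 25.0% and 24.7% for Psme1. It was lowest at Psma4_AY074887, with 9.8%, 8.7% and 8.7%, and at Psma2_Mrpl32, with 9.9%, 8.9% and 9.5%. The high and the low promoters did not overlap in any library, but they were picked as extremes of this share in the summed libraries. Among chaperones Dnajb4, a class B J-domain gene, led with 31.2%, 29.9% and 28.6%, and Dnajb2, another, with 30.9%, 26.8% and 27.2%. Dnaja2 was lowest, with 11.6%, 9.1% and 9.3%, followed by Tbccd1_Dnajb11, the shared promoter of the endoplasmic reticulum J-domain gene Dnajb11, with 13.2%, 10.0% and 9.7%. By class, the 4 activator viewpoints had a median of 25.0% and the 4 viewpoints classed by name as small HSP or HSP-binding 23.1%. The remaining classes of more than 1 viewpoint lay between 14.0% and 19.4%. These class medians describe few promoters each and were not tested.

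**Figure D2:**
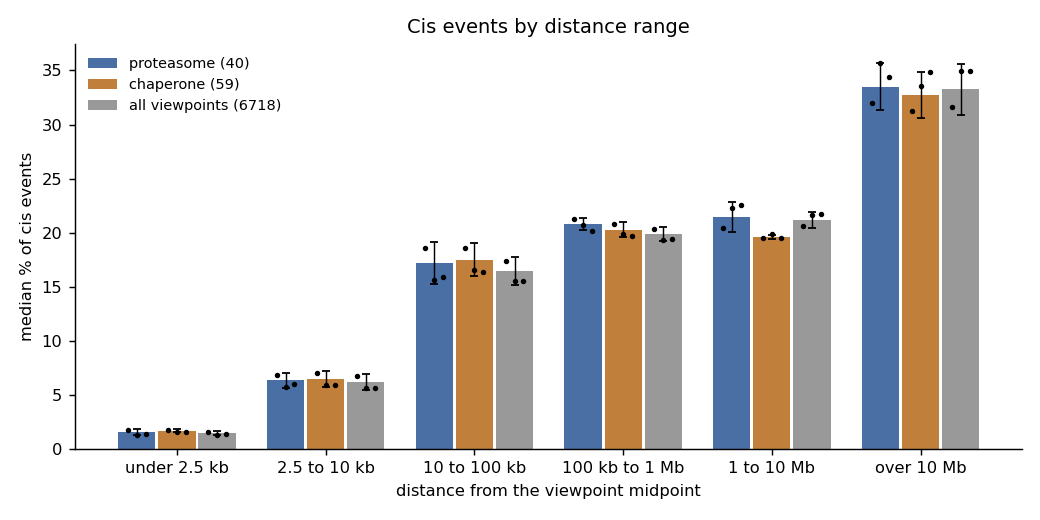
Percent of cis events in ranges of distance from the viewpoint for proteasome, chaperone and all viewpoints, with bars for the mean of medians (n = 2), error bars for the SD and dots for libraries a, b and c. The bars of the groups lie close together in most ranges, with 17.2% for proteasome, 17.5% for chaperone and 16.4% for all viewpoints from 10 to 100 kb.

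Each promoter was next asked on which side its contacts lay. Upstream and downstream were set by the gene whose start lies in the viewpoint, or, where none does, by the start of the named gene within 2000 bp, as for Dnajb2, Dnajc16, Cct7, Psmc1 and Dnajc4. Viewpoints that held starts on both strands had no direction. Over 35 proteasome viewpoints the median share of events from 10 kb to 1 Mb on the upstream side was 47.8%, and over 47 chaperone viewpoints 47.4%, beside 48.9% over 5915 viewpoints. In libraries a, b and c it was 47.7%, 48.7% and 47.2% for the proteasome (SD 0.728, n = 3), 47.6%, 46.9% and 47.3% for the chaperones (SD 0.367) and 48.8%, 48.8% and 49.0% over all viewpoints (SD 0.102). The proteasome median in library b was thus next to that of all viewpoints. Single promoters were rarely balanced. The 95% binomial interval (Clopper-Pearson, counting error only) lay wholly above 50% in 12 proteasome viewpoints, wholly below in 16 and across it in 7. For chaperones the counts were 15, 26 and 6. Over all viewpoints 38.9% lay above, 46.3% below and 14.8% across. The side was the same in each library for 28 of 35 proteasome and 44 of 47 chaperone viewpoints.

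Psmd12, a 19S lid subunit gene, was the most upstream proteasome promoter, with 80.0%, 77.5% and 78.2% of events upstream in libraries a, b and c. Psmd9, a base assembly chaperone gene, came next with 63.0%, 63.7% and 59.5%. At the other end stood Psmd7, a lid subunit gene, with 16.5%, 15.0% and 16.0% upstream, and Psmd1, the gene of a scaffold subunit of the base, with 23.0%, 29.8% and 22.8%. The libraries kept all 4, which were picked as extremes of this share, well apart from 50%. In the chaperone group Dnajc12_a had 79.1%, 78.1% and 81.8% upstream, and Hspa13, an HSP70 gene of the microsomes, 78.0%, 77.2% and 74.4%. Dnajc16 was the most downstream, with 17.7%, 19.4% and 18.9% upstream, followed by Hspa4l, a relative of HSP110, with 26.5%, 25.3% and 26.1%.

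At 2 viewpoints the gene that starts inside the fragment runs against the named member. In Psma2_Mrpl32 the start inside belongs to Mrpl32, a mitochondrial ribosomal protein gene, while Psma2 starts beyond the fragment and runs the other way. Its 927 upstream and 2304 downstream events, like its called windows below, therefore change sides when read from Psma2. The same holds for Dnajc17_Zfyve19, where Zfyve19 sets the direction. With the direction of the member gene itself, chosen after seeing the data, the medians were 48.2% over 39 proteasome and 46.9% over 57 chaperone viewpoints.

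**Figure D3:**
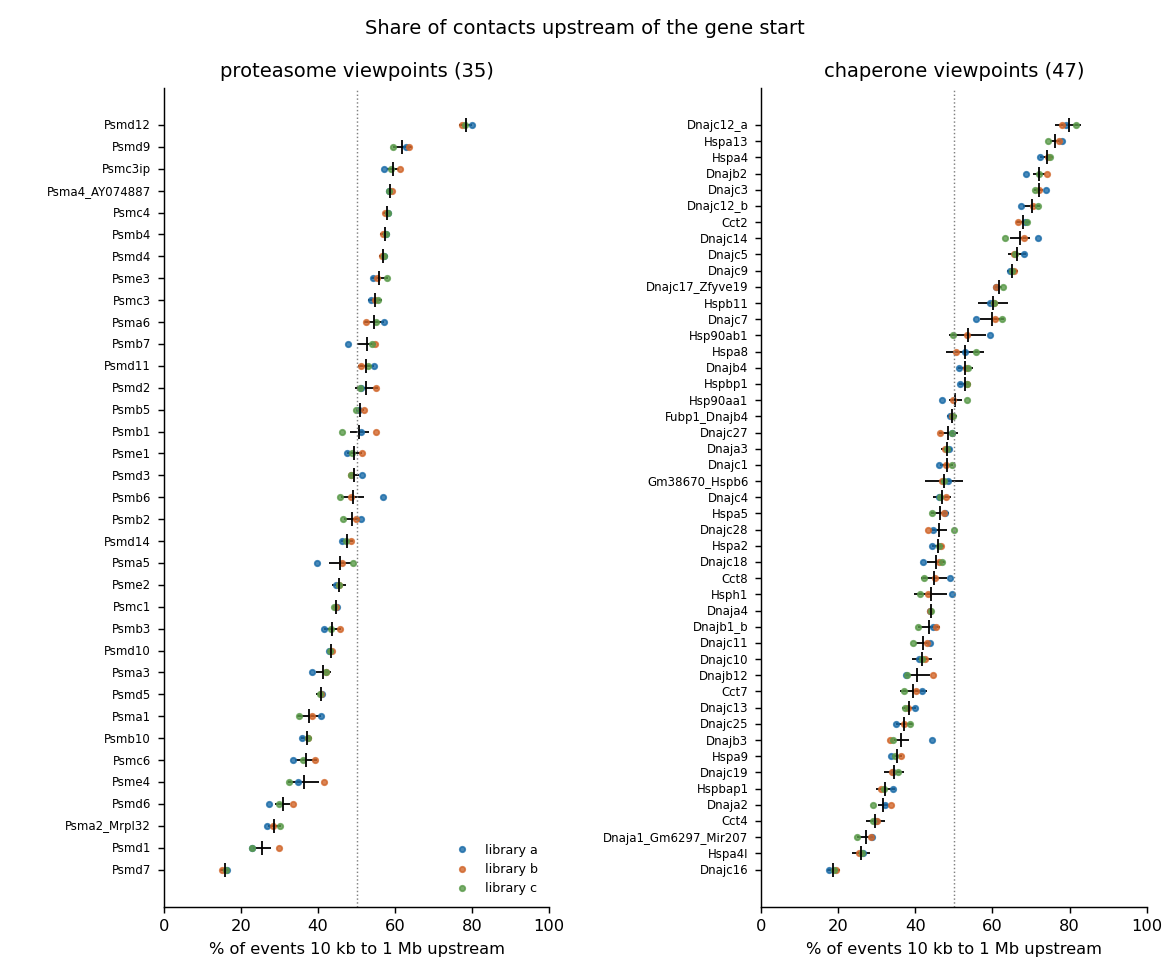
Percent of events from 10 kb to 1 Mb upstream of the gene that starts in the viewpoint or, for 5 viewpoints, within 2000 bp of it, for each proteasome (35) and chaperone (47) viewpoint with a direction. Coloured points are the 3 libraries, black ticks with lines the sum of libraries with its 95% interval, and the dotted line marks 50%. Psmd12 (78.4% in the sum) and Dnajc12_a (79.8%) stand at the upstream end and Psmd7 (15.8%) and Dnajc16 (18.7%) at the downstream end.

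To find places contacted beyond what distance gives, events were summed in windows of 5 kb from 2.5 kb to 1 Mb on each side. Each window was tested against the count expected at its distance with a negative binomial test, adjusted by Benjamini-Hochberg over all windows of all viewpoints. A window was called at an adjusted p under 0.05 with a count above expectation in every library. Of all windows 0.15% were called, and 27.2% of all viewpoints had at least 1. Proteasome viewpoints had 38 called windows, 0.239% of those tested, in 11 of 40 viewpoints (27.5%). Chaperone viewpoints had 58, or 0.249%, in 24 of 59 viewpoints (40.7%). The proteasome share of viewpoints was thus next to the background, and its windows were gathered in few promoters. For chaperones the share stood above the background in each range of depth, on few viewpoints. It was 4 of 11 (36.4%, against 21.7% of all viewpoints) from 1000 to 3000 events. It was 14 of 35 (40% against 27.6%) from 3000 to 10000 and 6 of 13 (46.2% against 29.6%) above. For the proteasome it was 0 of 4, 9 of 24 (37.5%) and 2 of 12 (16.7%) in the same ranges. The chaperone counts hold both viewpoints of Dnajb4 and of Dnajc12, which are not independent. These shares are a description and carry no test. The number of calls rests on few settings: 11 and 9 windows were called when no window was left out of the dispersion, 22 and 33 without library b, and 22 and 31 without library c. Chaperone viewpoints with a call fell from 24 to 15 of 59 without library a (25.4%, against 23.8% of all viewpoints), 19 without b (32.2% against 20.1%), 15 without c (25.4% against 19%) and 6 with no window left out (10.2% against 7.17%). Without library a the chaperone share was thus next to the background. Proteasome viewpoints with a call were 8, 7, 7 and 3 of 40 (20.0%, 17.5%, 17.5% and 7.5%) in the same settings.

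Together 90 windows were called at 34 viewpoints, in 64 runs of adjacent windows. Of the 90, 13 were called in each of 7 other settings of the processing that could drop a call, 4 in no more than 1 (at Psma6, Hsph1, Psmb1 and Cct5_Fam173b) and 12 in 2. Among the 7 was a minimum of 5000 events, which windows of shallower viewpoints failed whatever their counts. The 4 viewpoints just named lay below it, with 3595, 1571, 4532 and 2366 events. Another setting left out windows holding or near a 30-base word shared with the viewpoint, which touched few of the 90. The number of settings thus follows depth in part, and no matching share over all viewpoints is given. A window without a call is not shown to lack a contact. Called windows lay 5 to 935 kb from their viewpoint, at 3.36 to 20.4 times the expected count. A single window was called at 18 of the viewpoints, and 4 or more at 9. Since windows were picked for high counts, their ratios run high and describe the call. Expected counts take no account of side, so ratios also run high on the fuller side of a promoter with one-sided contacts. Called windows of Psmd7, Dnajb2, Dnajc16 and Psma2_Mrpl32 lay on the fuller side, that of Psma6 on the other. A protein-coding gene start lay in 31.6% of the called proteasome windows against 12.3% of those tested, in 29.3% against 9.71% for chaperones, and in 33.7% against 10.7% over all viewpoints. Of the 68 called windows with a direction 51 (75%) lay downstream, and 69.6% without Psma2_Mrpl32, beside 52.2% over all viewpoints. With the direction of the member gene itself this became 50 of 84 windows (59.5%), and no matching share over all viewpoints is given. Windows of the same viewpoint are not independent. By the gene start in or near the viewpoint, 28 viewpoints had a direction and a call. Of these, 19 had called windows downstream alone and 6 upstream alone. No matching count over all viewpoints is given, so this is not read as a trait of these promoters. Psma2_Mrpl32 counts there as downstream, by the start of Mrpl32.

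**Figure D4:**
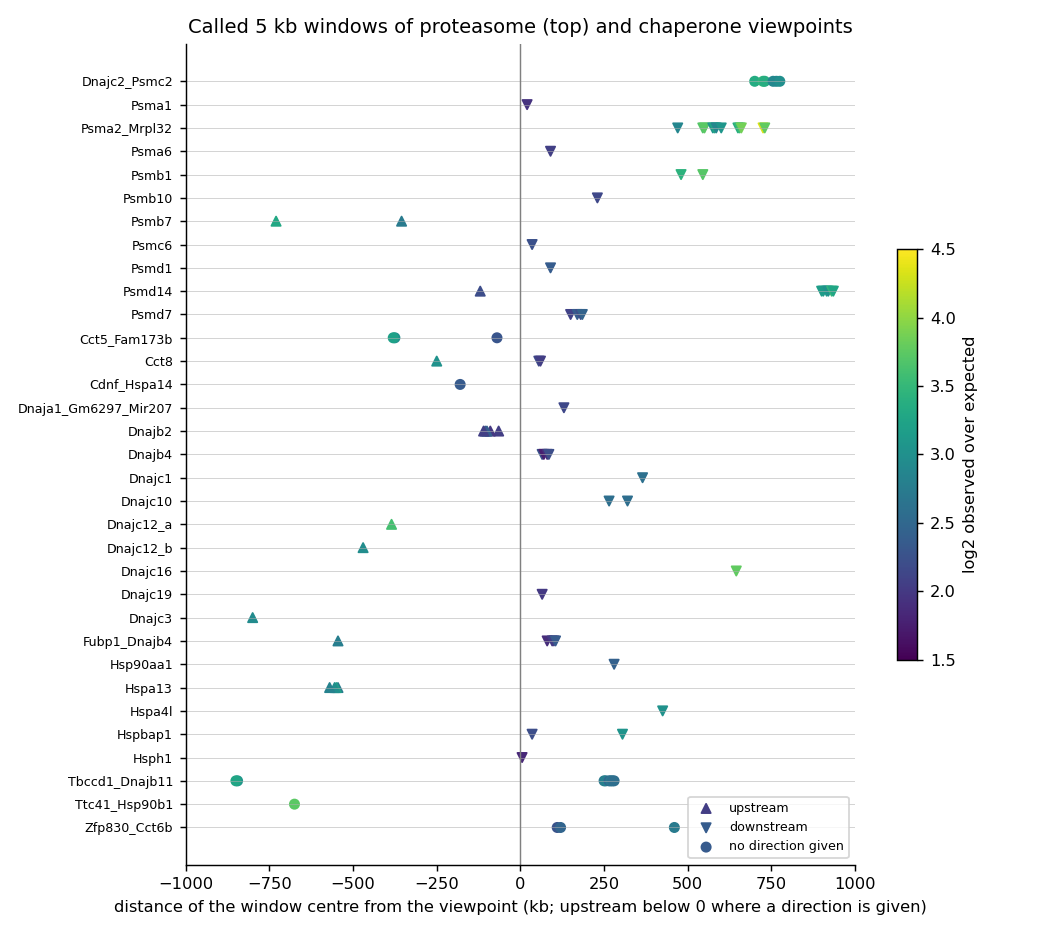
Called 5 kb windows of proteasome viewpoints (top rows) and chaperone viewpoints, by distance of the window centre from the viewpoint in kb, with the log2 ratio of observed to expected events as colour. The window of Dnajc13 is not drawn. Triangles show windows upstream or downstream of the gene start in or near the viewpoint and circles those of viewpoints without a direction. Windows sit between 5 and 935 kb, with the 12 windows of Psma2_Mrpl32 gathered from 470 to 730 kb on the same side.

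In the 20S alpha ring, 3 of 7 viewpoints had called windows. Psma2_Mrpl32 had 12, the most of any proteasome or chaperone viewpoint, over chr13:13972850-14237850. They held 88, 154 and 149 events in libraries a, b and c, which was 10.3, 10.6 and 9.94 times the expected count over the 12 together. Single windows were less even, as the one 545 kb away with 2, 15 and 16 events. The windows covered Arid4b, which encodes a chromatin protein, Ggps1, which makes geranylgeranyl diphosphate, Tbce, a tubulin folding cofactor, and B3galnt2, a glycosyltransferase. The window over the start of B3galnt2, 660 kb away, held 18, 18 and 21 events, 14.6 times the expected count, with an adjusted p of 1.35e-07. The highest ratio of all, 20.4, came from a window 725 kb away with 6, 4 and 5 events and an adjusted p of 5.1e-05. Each of the 12 windows was called in at least 5 of the 7 other settings.

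The called windows of Psma2_Mrpl32 lay within a broad stretch of raised counts. In stretches of 100 kb on that side, events were 0.892, 0.724, 0.959 and 1.03 times the expected count up to 400 kb, and then 3.08, 5.68, 5.35 and 3.41 times from 400 to 800 kb, and 1.85 and 2.10 times from there to 1 Mb. On the opposite side they stayed between 0.297 and 0.595 times from 100 kb on. Counts thus rose again from 400 kb on. Distances and expected counts rest on mm9, and whether the chromosome is arranged here as in mm9 in these hybrid mice was not tested. 

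The other alpha ring calls were near. Psma1 had 1 window 20 kb downstream, over the start of Copb1, a coatomer gene, with 15, 31 and 23 events and 3.85 times the expected count (adjusted p 0.007). Psma6 had 1 window 90 kb downstream over Nfkbia, the gene of the NF-kappaB inhibitor, with 10, 14 and 12 events and 4.15 times the expected count (adjusted p 0.048). Psma3, Psma4_AY074887, Psma5 and Psma7_Ss18l1 had none, although Psma4_AY074887 was the deepest viewpoint of all 102.

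Of the 9 beta ring viewpoints, 3 had called windows. Psmb1 had 2, 480 and 545 kb downstream, with 7, 6 and 10 events together, and Psmb7, a catalytic subunit gene, had 2, 355 and 730 kb upstream, with 6, 12 and 12 events. These rest on few events, and their ratios were 16.5, 7.99 and 13.3 in libraries a, b and c for Psmb1 and 6.21, 8.27 and 8.24 for Psmb7. Psmb10, an immunoproteasome subunit gene, had 1 window 230 kb downstream with 14, 30 and 14 events, in which library b was high (6.10 times the expected count against 4.38 and 2.86). Psmb2, Psmb3, Psmb4, Psmb5, Psmb6 and the shared promoter Psmb9_Tap1 had none.

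Among the 19S ATPases the calls were at Dnajc2_Psmc2 and Psmc6. Dnajc2_Psmc2 had 6 windows in 5 runs, 700 to 775 kb away over and beside Orc5, an origin recognition gene, with 22, 38 and 36 events. They stood at 11.6, 8.22 and 7.98 times the expected count. Psmc6 had 1 window 35 kb downstream within Styx, with 8, 10 and 12 events and 4.73 times the expected count (adjusted p 0.021). Psmc1, Psmc3, Psmc4 and Ftsj3_Psmc5 had none.

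Of the non-ATPase and assembly viewpoints tested, 3 of 13 had calls. Psmd14, the gene of the lid deubiquitinase, had 7 windows: 1 lay 120 kb upstream over the start of Tank, with 18, 19 and 19 events, and 6 lay 900 to 935 kb downstream over Ifih1, an innate RNA sensor gene. The window at the start of Ifih1 held 2, 8 and 12 events, 9.70 times the expected count (adjusted p 0.0063). Toward Ifih1 the ratio climbed with distance, from 0.483 between 400 and 500 kb to 4.58 between 900 kb and 1 Mb, where the tested range ends. The window at 905 kb holds a word of 30 bases that is also in the viewpoint, and what part of its counts this brings was not tested. Psmd7 had 4 windows, 150 to 185 kb downstream over Wwp2, a ubiquitin ligase gene, Nob1 and Nqo1. They held 51, 66 and 72 events, 4.83, 4.59 and 4.67 times the expected count. These ratios run high, since only 15.8% of Psmd7 events from 10 kb to 1 Mb lay upstream. Psmd1 had 1 window 90 kb downstream at the start of Armc9, with 10, 7 and 12 events. Psmd2, Psmd3, Psmd4, Psmd5, Psmd6, Psmd9, Psmd10, Psmd11, Psmd12 and Sirt3_Psmd13 had none, nor had the activators Psme1, Psme2, Psme3 and Psme4, nor Psmc3ip.

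The class B J-domain promoters held the most chaperone calls, with 22 windows at 4 of 8 viewpoints. Tbccd1_Dnajb11 had 8: 6 lay 250 to 280 kb away from Eif4a2, a translation initiation helicase gene, to beyond Rfc4, and 2 lay 845 and 850 kb away on the other side at Senp2, a SUMO protease gene. Together they held 74, 128 and 92 events, 6.70, 7.73 and 5.51 times the expected count. Dnajb2 had 5 windows, 65 to 110 kb upstream, over Abcb6, a porphyrin transporter gene of mitochondria, Zfand2b, Fam134a, 1810031K17Rik and Slc23a3. They held 84, 145 and 145 events, 4.26, 4.57 and 4.57 times the expected count. The highest ratio among them, 5.29, was 100 kb away over 1810031K17Rik. Both viewpoints of Dnajb4 called windows over Gipc2: Dnajb4 4 windows with 66, 134 and 116 events, and Fubp1_Dnajb4, 16.0 kb away, 4 of its 5. As the pair shares its surroundings, these calls count as 1 observation. The fifth window of Fubp1_Dnajb4 lay 545 kb away within Pigk. Dnajb1_b, Dnajb3, Dnajb12 and Gm5129_Dnajb6 had none.

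Class C J-domain viewpoints had 15 windows at 9 of 21 viewpoints, mostly 1 each. Besides the 6 of Dnajc2_Psmc2, Dnajc10, which encodes a disulfide reductase of the endoplasmic reticulum, had 2 windows 265 and 320 kb downstream at Nckap1 and Nup35, with 9, 15 and 18 events. Dnajc16 had 1 at 645 kb over the start of Fbxo42, with 5, 5 and 6 events and 13.6 times the expected count (adjusted p 0.00085). It was called in each of the 7 other settings. Dnajc3 had 1 at 800 kb over the start of Gpr180, with 11, 11 and 10 events, although the expected count was 4.19. Dnajc1 had 1 at 365 kb and Dnajc19 1 at 65 kb, at 6.06 and 3.99 times the expected count, and Dnajc13 also had 1. The viewpoints Dnajc12_a and Dnajc12_b, 4.2 kb apart, each had 1 upstream window but at different places, 385 and 470 kb away, and the second rested on library c, with 1, 3 and 9 events. The other 12 tested viewpoints of this class had none: Dnajc4, Dnajc5, Dnajc7, Dnajc9, Dnajc11, Dnajc14, Dnajc17_Zfyve19, Dnajc18, Dnajc25, Dnajc27, Dnajc28 and Wbscr22_Dnajc30.

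Among class A J-domain promoters only Dnaja1_Gm6297_Mir207 had a call, over the start of B4galt1 130 kb downstream with 13, 11 and 13 events, while Dnaja2, Dnaja3 and Dnaja4 had none. Of the 8 HSP70 viewpoints, 3 had calls. Hspa13 had 4 windows 545 to 570 kb upstream over Nrip1, a nuclear receptor corepressor gene, with 27, 43 and 45 events, 9.70, 6.92 and 7.28 times the expected count. Around them the ratio stayed above 1.17 in every stretch of 100 kb from 100 kb to 1 Mb upstream, with its highest value, 3.85, from 500 to 600 kb. Downstream it lay between 0.334 and 0.664 over the same distances. Expected counts are scaled by the total of both sides, so ratios run high on the fuller side of a one-sided promoter. Hspa4l had 1 window 425 kb downstream with 4, 8 and 6 events, and Cdnf_Hspa14 1 at the start of Rpp38, 180 kb away, with 7, 13 and 12. Hspa2, Hspa4, Hspa5, which encodes the chaperone BiP, Hspa8 and Hspa9 had none.

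In the HSP90 class, Hsp90aa1 had 1 window 280 kb downstream, with 9, 12 and 12 events. Ttc41_Hsp90b1, a shared promoter of the gene of the endoplasmic reticulum HSP90, had 1 window 675 kb away within Fbxo7, a ubiquitin ligase subunit gene, with 3, 6 and 7 events. Its ratio was 13.3, 12.2 and 14.2, and it was called in each of the 7 other settings, whereas Hsp90ab1 had no call. Hsph1, the HSP110 gene, had the nearest call of all, 5 kb downstream within Hsph1 itself, with 18, 21 and 25 events. That window lies within 5 fragments of a fragment sharing a 30-base word with the viewpoint, as does the Psmd7 window at Wwp2, and the part of this in the counts was not tested. Hspbap1 had 2 windows, 35 kb downstream within its own gene and 305 kb downstream within Ccdc58. Hspb11, Hspbp1, Gm38670_Hspb6 and Hspd1_Hspe1 had none.

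Of the 9 chaperonin viewpoints 3 had 9 windows. Zfp830_Cct6b had 3 at 110, 120 and 460 kb, the nearer 2 over Rad51l3, with 39, 55 and 54 events and 5.25, 5.43 and 5.11 times the expected count. Cct8 had 2 windows at Rwdd2b, 55 and 60 kb downstream, and 1 at 250 kb upstream, with 15, 28 and 39 events in all. Cct5_Fam173b had 1 at March6 and 2 at Dap, with 6, 19 and 31 events, in which library a was low (2.86 times the expected count against 5.41 and 8.70). Cct2, Cct4, Cct7, Pradc1_Cct7, Cct3_Tsacc and Cct6a_Psph had none.

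**Figure D5:**
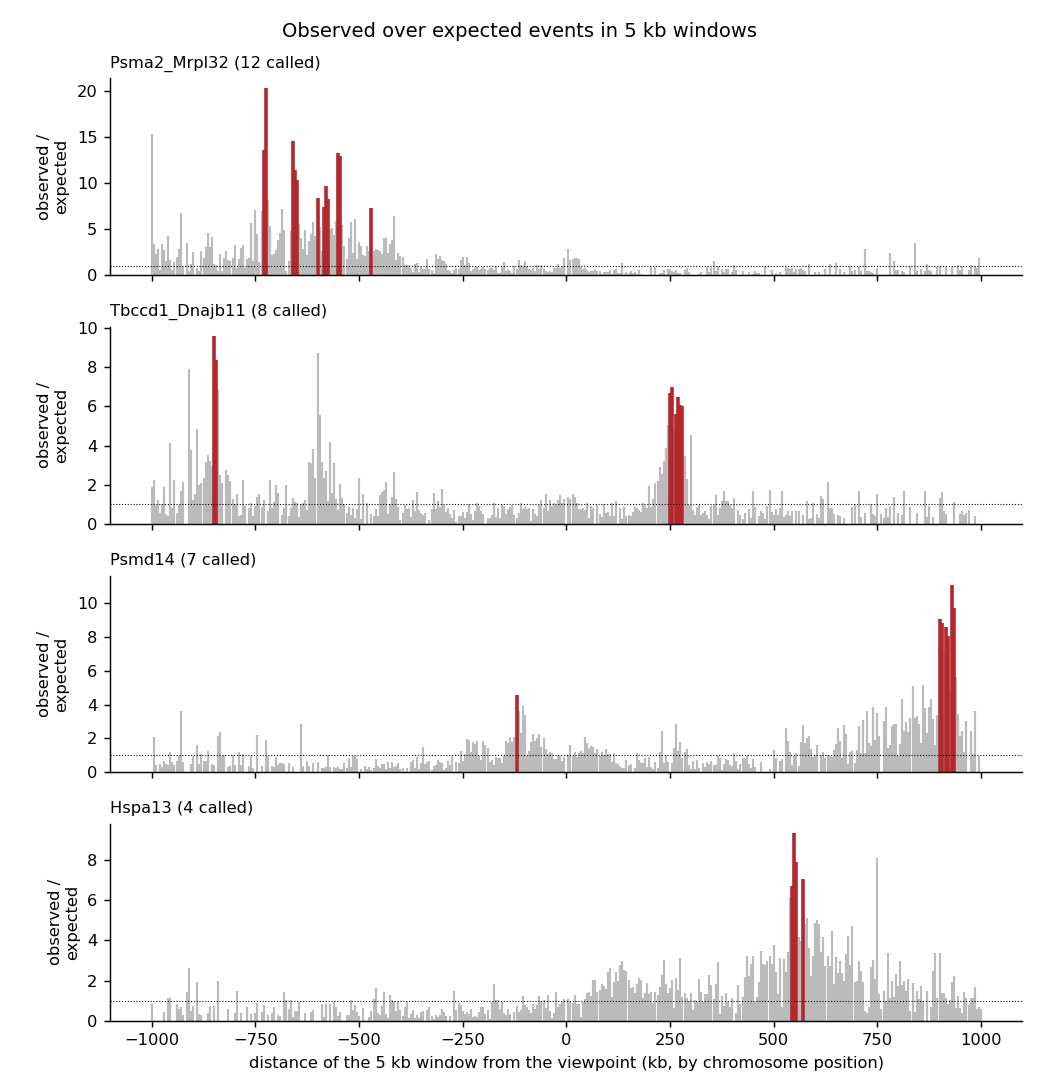
Observed over expected events in 5 kb windows within 1 Mb of Psma2_Mrpl32, Tbccd1_Dnajb11, Psmd14 and Hspa13, by distance along the chromosome. Red bars are called windows and the dotted line marks a ratio of 1. Psma2_Mrpl32 shows raised counts beyond -400 kb, highest from -700 to -500 kb, and Tbccd1_Dnajb11 a narrower rise from 200 to 300 kb, where 6 of its 8 called windows lie.

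Some called windows held another viewpoint, so the contact could be counted from its other end. Targeted fragments are absent from the contact table, and each end therefore counts ligations to neighbours of the other fragment, which are different molecules. There were 24 pairs of a proteasome or chaperone viewpoint and another viewpoint in its called windows, and 21 could be tested. From the other end 20 of 21 stood above expectation and 17 in each library, with a median of 4.57 times the expected count. Over all viewpoints 97.3% of such pairs stood above expectation with a median of 4.01. The threshold was passed from both ends by 7 of the 21 pairs, near the background of 31.0% (286 of 923 pairs). These were Nhej1 with Dnajb2, Nckap1 with Dnajc10, Copb1 with Psma1, Wwp2 with Psmd7, Rwdd2b with Cct8, the Orc5 viewpoint with Dnajc2_Psmc2, and B3galnt2 with Psma2_Mrpl32.

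B3galnt2 had the highest ratio from the other end, 11.7, with 5, 4 and 6 events, and an adjusted p of 0.0034. The Orc5 viewpoint had 5, 3 and 11 events near Dnajc2_Psmc2, 11.2 times the expected count (adjusted p 0.0024). The viewpoint of Arid4b and Ggps1, in the same stretch of Psma2_Mrpl32, had 6, 7 and 2 events, 5.67 times the expected count, and missed the threshold (adjusted p 0.15). The exception was Nqo1 with Psmd7, at 0 events where 1.19 were expected. By counting error alone, a count of 0 allows up to 3 events, or 2.53 times the expected count, beside the 5.42 times counted from Psmd7. That window was picked for its high count, so whether the ends differ was not tested. Wdr38 with Psmb7 and Senp2 with Tbccd1_Dnajb11 had 1 event each.

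Single DpnII fragments were put to the same test without summing, but, unlike for windows, none was left out of the dispersion. Of all fragments 0.00086% were called, at 2.31% of viewpoints. There were 4 called fragments at 3 of the 98 viewpoints, 2 in each group. With the highest 0.1% left out, as for windows, 6 proteasome and 5 chaperone fragments were called. Over all viewpoints it was then 1184 instead of 248. Psma2_Mrpl32 had 2, both 43.0 times the expected count (adjusted p 0.0055): the fragment printed above, with 4, 3 and 5 events, and chr13:14048032-14049268 over B3galnt2, with 6, 4 and 2. Dnajc16 had 1 at chr4:140700285-140700953 with 4, 2 and 4 events (adjusted p 0.0058), and Dnaja1_Gm6297_Mir207 1 at chr4:40798867-40799560 over B4galt1 with 8, 3 and 1 (adjusted p 0.036). All 4 lie in windows already called, so they are the same contacts at finer scale, and the last rests mainly on library a. Without library a, no proteasome fragment was called, and 1 chaperone fragment was called without any 1 library.

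Fragments next to other promoters' viewpoints were contacted more often than distance gives, here as elsewhere. At fragments 1 to 2 places from another viewpoint, the median ratio was 1.61 ± 0.123 (SD, n = 2) for proteasome viewpoints and 1.65 ± 0.0573 for chaperone viewpoints, beside 1.54 ± 0.0313 over all viewpoints. In libraries a, b and c it was 1.52, 1.70 and 1.68 for the proteasome, 1.61, 1.67 and 1.72 for the chaperones and 1.52, 1.56 and 1.56 over all viewpoints. It was above 1 in each library for 31 of 40 proteasome and 45 of 59 chaperone viewpoints, beside 65.3% of all viewpoints. Tbccd1_Dnajb11 was highest, with 3.74, 6.83 and 6.77 in libraries a, b and c, followed by Psmd1 with 4.41, 5.10 and 7.02. Called windows of both held other viewpoints, so these ratios can count the same events again. Below 1 in each library was Dnajc16, with 0.796, 0.930 and 0.996. Hspa8, the constitutive HSP70 gene, had 0 events on its 3 flanking fragments, where 0.104 were expected, which is too few to read.

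Members that lie within 1 Mb of each other on a chromosome were also compared directly. Pooled over all such pairs and both ends, flanking fragments held 1.65 ± 0.0898 times the expected count, with 1.72, 1.56 and 1.62 in libraries a, b and c. This is a ratio of sums, in which deep and near pairs weigh most and viewpoints of the same gene take part, and it is not comparable to the medians above. Psma4_AY074887 and Dnaja4, 251 kb apart, were the best counted pair: within 5 kb of Dnaja4 the first had 167, 271 and 259 events, 2.64 times the expected count, and the reverse gave 83, 105 and 125 events and 2.21 times. At fragments 1 to 2 places away the same pair gave 2.53 and 1.59 times. Over the flanks of all other viewpoints, Psma4_AY074887 had 2.15 and Dnaja4 1.90 times, so the pair stood near its own background. The measure within 5 kb has no value over all viewpoints here. Hspa5 and Psmd5, 98.6 kb apart, gave 2.51 and 1.89 times within 5 kb. Psme1 and Psme2, 12.3 kb apart, gave 1.24 and 1.35, and Psmd4 gave 1.31 times near Psmb4, 156 kb away, while Psmb4 had 79 events near Psmd4 where 66.0 were expected.

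Psmb5 had 10, 16 and 15 events within 5 kb of Psme1, 960 kb away, 3.12 times the expected count, but Psme1 had 0, 2 and 1 events near Psmb5, 0.76 times, so the ends disagreed. Between Psmb5 and Psme2 the ratios were 1.90 and 2.81, on 2, 4 and 15 events and on 2, 1 and 8, so they rest mainly on library c. Psmb3 and Psmd3, 979 kb apart, gave 1.69 and 1.94 times on 5 and 15 events. Around Psme3, the ratios with Psmc3ip were 1.24 and 1.95, while Psme3 had 0 events near Dnajc7, where 3.57 were expected. Dnajc7 had 0, 1 and 7 events near Psmc3ip and 0, 0 and 4 near Psme3, so its ratios of 2.85 and 2.11 rest on library c, and Psmc3ip gave 1.29 near Dnajc7. The pair Hspa9 and Dnajc18 gave 0.798 and 3.21. Viewpoints of the same gene gave 1.46 and 1.66 for Dnajb4, 1.25 and 1.49 for Cct7 and 0.783 and 0.897 for Dnajc12.

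Genes of the same pathways outside the naming rule were taken from a list of 47, of which 45 had a viewpoint. They cover assembly factors, ubiquitin handling, prefoldin, cochaperones and the transcription factors of the heat shock and proteasome responses. Among 44 tested viewpoints, 9 (20.5%) had a called window, with 25 windows in all, 0.144% of those tested, so these genes lay at or below the background. Grpel1, the nucleotide exchange factor of mitochondrial HSP70, had 10 of the 25. Usp14, a deubiquitinase of the proteasome, had 4, and Vbp1, Nfe2l2, Psmf1 and Tcp1_Mrpl18 had 2 each. Pdia4, Ahsa1 and St13 had 1 each. Nfe2l1, which drives proteasome genes, Hsf2, Pomp, Vcp and Adrm1 had none, and the Hsf1 viewpoint was too shallow with 651 events.

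The promoters were also read for sequence features, from 250 bases before to 50 after the start in RefSeq (GRCm38.p6), which held sequences for 34 of 40 proteasome and 47 of 59 chaperone genes. A gene counted when any of its starts matched, so genes with more starts had more chances. A pair of inverted heat shock units, TTCNNGAA, was present at 2 proteasome genes (5.88%), Psmd4 and Psme3. It was present at 8 chaperone genes (17.0%), beside 9.6% of all genes. With a further unit next to the pair, making 3 (TTCNNGAANNTTC on either strand), the shares were 0 of 34 and 4 of 47 (8.51%), beside 0.662% of all. Those 4 were Hspd1, Hspe1, Dnajb6 and Hsph1, and the first 2 share the same stretch between divergent starts. Hsp90aa1, Hsp90ab1, Hspa8 and Hspa9 were among the chaperone genes without a sequence, so their promoters were not read. The core of the antioxidant response element, TGACNNNGC on either strand, was present at 17.6% of proteasome and 23.4% of chaperone genes, beside 14.0% of all. The CCAAT box was present in 38.2%, 46.8% and 41.1%. The longer heat shock match overlaps the pair by construction, and a match is no evidence of binding.

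The promoters with the longer match are printed because they carry the least common of the motifs searched, in the direction of the gene, with the match in capitals. Hspd1 lies at chr1:55087883-55088182 on the minus strand, Dnajb6 at chr5:29735729-29736028 on the plus strand and Hsph1 at chr5:149636266-149636565 on the minus strand, all in GRCm38.p6, which is not the build of the contacts. Of their viewpoints, Hspd1_Hspe1 and Gm5129_Dnajb6 had no called window, and Hsph1 had the window 5 kb away.
Hspd1: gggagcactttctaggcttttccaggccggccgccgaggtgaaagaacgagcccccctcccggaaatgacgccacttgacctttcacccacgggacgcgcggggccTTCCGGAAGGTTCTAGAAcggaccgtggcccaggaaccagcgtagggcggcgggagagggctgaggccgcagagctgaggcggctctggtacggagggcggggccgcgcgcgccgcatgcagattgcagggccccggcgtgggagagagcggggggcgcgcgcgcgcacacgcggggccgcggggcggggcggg
Dnajb6: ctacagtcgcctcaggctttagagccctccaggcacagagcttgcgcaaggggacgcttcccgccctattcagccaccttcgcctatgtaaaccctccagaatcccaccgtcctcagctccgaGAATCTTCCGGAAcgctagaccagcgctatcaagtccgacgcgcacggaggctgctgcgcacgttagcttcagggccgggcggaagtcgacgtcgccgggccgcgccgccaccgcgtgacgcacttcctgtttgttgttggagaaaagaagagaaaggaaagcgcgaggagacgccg
Hsph1: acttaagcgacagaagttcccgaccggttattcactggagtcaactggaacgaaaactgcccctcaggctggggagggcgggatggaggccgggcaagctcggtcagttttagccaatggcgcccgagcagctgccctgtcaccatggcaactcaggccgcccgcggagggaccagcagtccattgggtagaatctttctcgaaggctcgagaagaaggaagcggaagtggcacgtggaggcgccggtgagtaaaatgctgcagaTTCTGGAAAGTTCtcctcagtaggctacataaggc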

How the data were processed

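The authors aligned the reads, counted unique ligation events (reporters) with CCseqBasic and scaled the counts with CaptureCompare. The signal the authors deposited gives, for each viewpoint and library, reporters out of 100000 on the same chromosome. The submitters' processing notes name Bowtie, Trim Galore and mm9, and their versions are not given in the sources used here. Event counts were obtained by dividing each value by the lowest value of its viewpoint and library, after which 100% were whole within 0.01 events. A viewpoint whose lowest value stood for more than 1 event would be undercounted. The libraries held 18230099, 34428035 and 34233560 events. Fragments were mapped to NCBIM37 with GENCODE vM1 genes, and 1 wrong end position in the viewpoint list was replaced from the digest.

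Expected counts came from the mean in 50 distance bins, scaled by each viewpoint's total. Dispersion per bin was taken by moments, leaving out the highest 0.1% of windows and no single fragment. The study's own caller was not run here. Python 3.11.15, numpy 2.4.6 and scipy 1.17.1 were used. The calling was also run on simulated counts, where it missed part of the raised windows. Only windows with at least 5 expected events were raised there, and many called windows here had fewer. The viewpoints named were those with a call or too few events, the 3 deepest and 3 shallowest of each group, the 2 highest and 2 lowest in share from 10 to 100 kb and in upstream share, and all pairs within 1 Mb. The remaining viewpoints are named by class, and flank extremes and the 4 plotted profiles were chosen after their values were seen. The place and counts of 1 called window are not reported here. Members and lists were chosen with earlier results of these data known.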

Additional observations from a re-analysis of the deposited data

How the results depend on the processing

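No paired analysis was possible because the series has 1 group and the columns carry no replicate number. The number of calls depended on the dispersion. Called windows, 38 for proteasome and 58 for chaperone viewpoints, became 11 and 9 (at 3 and 6 viewpoints) with no window left out of the dispersion, and 80 (at 20 viewpoints) and 117 with the highest 1% left out. Poisson counts gave 894 and 1205 windows (at 40 and 59 viewpoints). Leaving out 1 library gave 22 to 32 and 31 to 41 windows (lowest without libraries b and c), at 7 to 8 and 15 to 19 viewpoints. Viewpoints with a call in the proteasome group were 7 with 10 kb windows, 7 with expectation by fragment length and 6 with at least 5000 events, against 11. Of the 90 called windows, 19 were kept with no window left out, 58 with fragment length, 56, 45 and 42 without library a, b and c, and 13 in every one of the 7 settings that could drop a call. Those 7 include the minimum of 5000 events, which windows of shallower viewpoints fail by construction. Leaving out chromosome X and the chromosome 9 stretch, chosen after seeing the data, removes no viewpoint with a call and so tests nothing about these counts. Called single fragments, 2 in each group, were 6 and 5 when the dispersion was taken without the highest 0.1%, 21 and 26 without the highest 1% and 1134 and 1052 with Poisson counts. They were 0 (without library a) to 2 and 1 to 1 with a library left out, and 1 for chaperones with at least 5000 events. Of the events within 1 Mb, 36.0% and 37.9% lay from 10 to 100 kb. The upstream medians were 49.1% and 48.4% at 2.5 to 100 kb, 48.9% and 48.2% beyond 100 kb, 47.4% and 47.0% per listed fragment, 48.2% and 46.9% by the direction of the member gene, also chosen after seeing the data, and for the proteasome 47.5% to 48.2% with a library left out. Flank ratios were 1.34 and 1.34 at 1 place, 1.75 and 1.80 at 1 to 5 places, and 1.91 for chaperones at other viewpoints at least 50 kb away. The proteasome slope weighted by events was -0.84. With libraries b and c counted apart, also chosen after seeing the data, all 10 medians moved by less than 1 SD. The cause of these shifts was not tested.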
